A study of Mus musculus with 183 samples.

Results

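The genes described here are 10 regulators of naive pluripotency in mouse embryonic stem cells: Pou5f1, Nanog, Sox2, Klf4, Klf2, Klf5, Esrrb, Tfcp2l1, Zfp42 and Tbx3. They were listed by name and not by a measured value, although earlier results of these data were known when they were chosen. They were read from a count table of 53380 genes and from a binding table of 7240 mRNAs. All 10 members are in both tables, and all 10 passed the filter on low counts in every fit across genes. The RNA-seq libraries came from an experiment that followed RNA decay after transcription was stopped with actinomycin D, in cells before and after an agent that deletes Skiv2l, the helicase of the cytoplasmic exosome.

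The count table holds 47 libraries of ribosomal RNA-depleted total RNA with spiked-in ERCC RNA of known sequence. Clone 5F is labelled Rosa26Cre-ERT2/- Skiv2lfl/fl. Clone 7E is labelled with Rosa26Cre-ERT2/BirA-V6, with 3xFLAG-Avi tags on both Skiv2l alleles and with Aven-/-, while the methods of the study list it as Skiv2lfl/fl Aven-/- and write BirA-V5. Aven is a partner protein of SKIV2L in this study. Both lines are male, of mixed 129 and C57BL/6 origin, and were grown in serum with LIF on gelatin. Each line is 1 clone, so clone and genotype cannot be told apart. Day 0 cells received no 4-hydroxytamoxifen (4OHT), and day 4 cells had 0.1 µM 4OHT, which activates Cre and removes a block of Skiv2l exons. No cells without a floxed Skiv2l were given 4OHT, so the agent, the days in culture and the deletion cannot be told apart. Each clone and day was sampled after 120, 240 and 360 min of actinomycin D and after 6 h of the solvent DMSO, called mock here. There were 3 libraries in each group and 2 in clone 5F at day 0 and 120 min. The study calls its replicates technical, so the p-values given here for levels measure only the spread between libraries. Those for decay, and the SEs of half-lives, also hold departures of the time courses from a straight line.

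Total counts were 24440935 to 34114250 per library. In the mock libraries Skiv2l had 4136 to 4205 normalised counts in clone 5F at day 0 and 3825 to 4415 in the libraries labelled day 4, a log2 difference of -0.01 ± 0.05 (SE, n = 3 and 3, edgeR adjusted p = 0.914). The 5F libraries labelled day 4 therefore do not show the loss of Skiv2l counts that their label implies. In clone 7E Skiv2l was at 903 to 1038 at day 0 and 368 to 406 at day 4, a log2 difference of -1.32 ± 0.07. Clone 7E at day 0 was already 2.10 below clone 5F on the log2 scale (-2.10 ± 0.05), and Aven was lower by -3.90 ± 0.10. The members, which are the markers of the naive state here, summed to 84713 to 100994 normalised counts in the mock libraries, and none of them averaged below the 877 of Tbx3 in clone 7E at day 4. Those of trophoblast summed to 29 to 140 normalised counts over 4 genes, those of fibroblast feeder cells to 37 to 129 over 5 genes and those of primitive endoderm to 441 to 3921 over 7 genes. Lum was the marker at 0 in a whole group, clone 7E at day 0.

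As background, naive pluripotency is held by a network of transcription factors that activate one another and keep differentiation genes silent. OCT4, the product of Pou5f1, binds DNA together with SOX2, and NANOG and ESRRB occupy many of the same enhancers. LIF acts through its receptor and STAT3, with KLF4 and TFCP2L1 among the targets, while KLF2 and KLF5 overlap in function with KLF4. TBX3 acts in the same network, and Zfp42 encodes REX1, a widely used marker of the naive state. How long the mRNA of such a factor lasts sets how soon its level can follow a change in transcription.

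Short sequence elements in 3′ untranslated regions (UTRs) bind proteins that recruit decay enzymes. ATTTA is the core of AU-rich elements, and TGTANATA is the core bound by Pumilio proteins. The 3′ UTR of the transcript used in the binding table was searched for both on the sense strand, with overlapping matches counted. The sites below are from the members with the shortest half-lives, and from Nanog, where a pair of ATTTA matches overlap. Sequences are from the GRCm38 reference, 5′ to 3′ on the gene's strand, with the motif in capitals.
Klf2 ATTTA, chr8:72320988-72321016, plus strand: aaacagactgctATTTAttggaccttagg
Klf2 TGTANATA, chr8:72321228-72321255, plus strand: tttataatatTGTATATAagactatgac
Klf4 ATTTA, chr4:55527258-55527286, minus strand: tatgtaatataaATTTAagcaaacttcta
Sox2 ATTTA, chr3:34651822-34651850, plus strand: cttttgtacagtATTTAtcgagataaaca
Sox2 TGTANATA, chr3:34652340-34652367, plus strand: cgagaatccaTGTATATAtttgaactaa
Tbx3 ATTTA, chr5:119684067-119684095, plus strand: agttaaactttaATTTAttgaattgtaca
Tbx3 TGTANATA, chr5:119684094-119684121, plus strand: catagctggaTGTAAATAggagcgtgtc
Nanog ATTTA, chr6:122713626-122713654, plus strand: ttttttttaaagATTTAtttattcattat

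All of these sites lie in the annotated 3′ UTR. Klf2 has 1 match to each motif in 737 nt, Klf4 has 1 ATTTA in 982 nt, and Sox2 has 4 ATTTA and 1 TGTANATA in 1086 nt. Tbx3 has 2 ATTTA and 3 TGTANATA in 1632 nt, and Klf5 has 4 and 3 in 1707 nt. Nanog has 3 ATTTA in 1078 nt and Esrrb 1 in 735 nt, without a TGTANATA in either. Tfcp2l1 has the longest 3′ UTR of the members, 7734 nt, with 7 ATTTA and 1 TGTANATA. Neither motif is in the 221 nt of Pou5f1 or in the 533 nt of Zfp42. Of 6671 transcripts with a 3′ UTR that could be read, 68% hold ATTTA and 26.5% hold TGTANATA, with a median UTR of 1017 nt. A match is a description of the letters, and binding to these sites was not measured.

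Levels were compared between genes only per length, as RPKM from the mock counts and the deposited transcript length. In clone 5F at day 0 Pou5f1 stood at 697 ± 10.2 RPKM (SD, n = 3), at percentile 99.6 of 7145 mRNAs. Nanog (149 ± 2.54), Esrrb (147 ± 7.43), Sox2 (140 ± 1.43) and Zfp42 (139 ± 3.98) followed, and neighbours among these 4 did not differ beyond their spread. Tfcp2l1 was at 55.3 ± 1.86 and Klf5 at 48.9 ± 1.16. Klf4 (31.6 ± 2.34) and Klf2 (31.3 ± 2.38) did not differ beyond their spread. Tbx3 was lowest, at 7.59 ± 0.0904 and percentile 20.3. The length that is used matters for Esrrb, whose level was 52.0 when all annotated exons were counted as its length, while Pou5f1 stayed first at 422.

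Pou5f1 was first and Tbx3 last in all 4 mock groups, and the order in between moved. In clone 7E Zfp42 was in second place, at 242 ± 3.46 RPKM on day 0 and 211 ± 12.4 on day 4, and Klf2 lay above Klf4, at 50.6 ± 3.04 against 29.8 ± 0.963 on day 0. Reads were counted without strand, and 14.1% of the exonic length of Pou5f1 is also covered by Gm19553 on the other strand, so reads there cannot be assigned to a gene. The overlap was 1.74% for Tbx3 (Tbx3os1) and 1.38% for Tfcp2l1 (Gm23497), and 0 for the other members. Only uniquely placed reads were counted, which leaves the counts of Pou5f1 and Nanog, genes with processed pseudogene copies, uncertain to that extent.

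**Figure D1:**
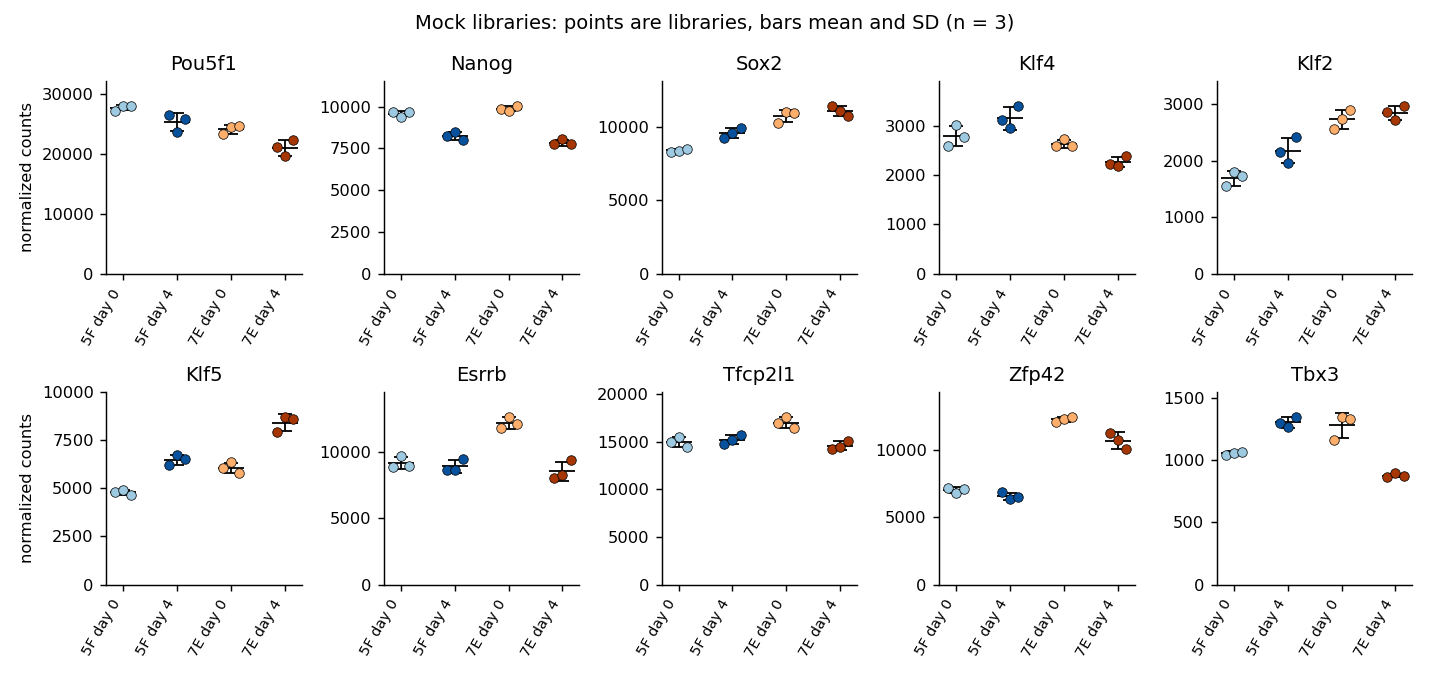
Normalised counts of the 10 members in each of the 12 mock libraries, with 1 panel per gene and its own vertical axis; points are libraries and bars are the mean and SD of 3. Zfp42 stood at 12142 to 12494 in clone 7E at day 0 and at 6836 to 7229 in clone 5F, and Klf5 was higher at day 4 than at day 0 in both clones under the main scaling.

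The first comparison asked whether mock levels differed between the days in clone 5F. Of the 10 members 5 rose and 2 fell at day 4, against 12.8% of all genes tested that were called higher and 11.6% that were called lower. In all level comparisons such shares include genes with far fewer counts than the members, and calls were more frequent without them. In clone 5F 3998 of 16349 genes were called. With only genes of a mean of at least 50 counts tested, 3825 of 12271 were called. The KLF factors made up 3 of the 5. Klf5 had 4804, 4890 and 4665 normalised counts at day 0 and 6205, 6710 and 6543 at day 4. The groups did not overlap, and the log2 difference was 0.44 ± 0.05 (SE, n = 3 and 3, edgeR adjusted p = 4.4e-07). Klf2 went from 1542, 1789 and 1728 to 2156, 1962 and 2407, a log2 difference of 0.37 ± 0.07 (adjusted p = 0.000394), and Tbx3 from 1045, 1059 and 1070 to 1298, 1266 and 1349 (0.30 ± 0.05, adjusted p = 0.000395). Neither gene overlapped between the days. Sox2 rose by less, at 0.19 ± 0.04 (adjusted p = 0.00264), and so did Klf4, at 0.17 ± 0.06 (adjusted p = 0.0333), where the libraries of the days overlapped.

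Nanog fell in clone 5F, from 9687, 9398 and 9677 to 8260, 8468 and 8008, a log2 difference of -0.22 ± 0.04 (adjusted p = 0.000817). Pou5f1 was at 27220, 27942 and 27899 on day 0 and at 26491, 23618 and 25861 on day 4 (-0.13 ± 0.05, adjusted p = 0.0478). These 2 genes were lower at day 4 in every library. Esrrb (-0.04 ± 0.05), Tfcp2l1 (0.02 ± 0.04) and Zfp42 (-0.10 ± 0.05) were not called. The calls of Pou5f1, Klf4 and Sox2 were the weak ones. Pou5f1 was not called when any replicate was left out, Klf4 when replicate 1 or 3 was left out, and Sox2 when replicate 3 was left out, which together with Klf4 and Pou5f1 brought the members called from 7 to 4. With each library scaled to its own ERCC counts Klf4 and Sox2 were not called, and the split over all genes went from 2095 higher and 1903 lower to 1063 and 2351. The median over the members was 0.10 on the log2 scale, beside -0.005 over all genes.

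In clone 7E, 1 member rose and 7 fell at day 4, against 20.7% of all genes called higher and 19.4% called lower. Tbx3 had 1163, 1346 and 1332 normalised counts at day 0 and 867, 894 and 870 at day 4, a log2 difference of -0.55 ± 0.06 (edgeR adjusted p = 3.34e-07). Esrrb went from 11781, 12652 and 12143 to 8008, 8268 and 9368 (-0.51 ± 0.05, adjusted p = 3.8e-08). In both genes every day 4 library was below every day 0 library. Nanog fell from 9875, 9735 and 10030 to 7740, 8041 and 7739 (-0.33 ± 0.04, adjusted p = 1.56e-06). Smaller falls were called for Tfcp2l1 (-0.22 ± 0.05), Klf4 (-0.21 ± 0.05), Pou5f1 (-0.20 ± 0.05) and Zfp42 (-0.20 ± 0.05).

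Klf5 was the exception in clone 7E. It had 6039, 6343 and 5781 normalised counts at day 0 and 7932, 8706 and 8604 at day 4 (0.47 ± 0.05, adjusted p = 4.29e-08), a rise under the main scaling that became a fall of -0.62 when each library was scaled to its own ERCC counts. Sox2 (0.04 ± 0.05) and Klf2 (0.06 ± 0.05) were not called, and under the ERCC scaling they were called lower, at -1.06 and -1.04. That scaling moved the median of all genes in this comparison from -0.008 to -1.105 and called all 10 members lower, with a split over all genes of 258 higher and 14716 lower in place of 3381 and 3170. The median over the members was -0.21 in the main scaling. Such a change of scaling moves every gene by about the same amount, so the order of the members under it is no separate evidence.

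Markers of other cell types were also called at day 4 in clone 7E, where 20.7% of all genes were called higher and 19.4% lower. All 3 trophoblast genes tested were called higher, Gata3 (2.30 ± 0.25), Hand1 (2.28 ± 0.45) and Cdx2 (0.78 ± 0.28), with a summed level of 29 to 46 normalised counts at day 0 and 115 to 140 at day 4. Of the feeder genes 2 of 3 tested were higher, Col1a2 (1.30 ± 0.41) and Col1a1 (1.17 ± 0.22), with sums of 37 to 55 and 83 to 112, and of the primitive endoderm genes 2 of 7, Foxa2 (1.30 ± 0.13) and Sox7 (0.53 ± 0.18), with sums of 441 to 485 and 575 to 603. Genes of the exit from the naive state were split, with 3 of 8 higher and 3 lower, and Zic2 (-1.42 ± 0.10), Otx2 (-0.64 ± 0.07) and Lef1 (0.56 ± 0.19) moved most. With own ERCC counts the sign turned for 1 called trophoblast gene, 1 of primitive endoderm and 3 of the exit list, and no feeder gene was called. That scaling called 2 trophoblast genes higher and 0 lower. It called 0 primitive endoderm genes higher and 6 lower, and 0 exit genes higher and 8 lower. Of all genes it called 14716 of 16333 lower. In clone 5F the trophoblast sum was 50 to 66 at day 0 and 73 to 82 at day 4, the feeder sum 76 to 110 and 112 to 129, and the primitive endoderm sum 3752 to 3921 and 3085 to 3178. In such bulk samples fewer cells of a type and less RNA per cell cannot be told apart, and the part of these markers in the members' differences was not tested.

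The next comparison set the clones against each other at day 0, before 4OHT. It uses the same day 0 libraries as the comparisons of days, so its values are not independent of them. In clone 7E 7 members were higher and 1 was lower than in clone 5F, against 20% of all genes called higher and 19.7% called lower. Zfp42 had the largest difference, with 7229, 6836 and 7118 normalised counts in clone 5F and 12142, 12331 and 12494 in clone 7E, a fold of 1.75 (log2 0.80 ± 0.04, edgeR adjusted p = 7.82e-14). Klf2 stood at 1542 to 1789 in clone 5F and at 2564 to 2892 in clone 7E (log2 0.69 ± 0.06, adjusted p = 3.82e-10). The libraries of the clones did not overlap in either gene. Zfp42 and Klf2 both lie on chromosome 8, where no other member lies. Whether genes of that chromosome differed between the clones more widely was not tested.

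Esrrb (0.41 ± 0.04), Sox2 (0.36 ± 0.04), Klf5 (0.34 ± 0.04), Tbx3 (0.27 ± 0.06) and Tfcp2l1 (0.19 ± 0.04) were also higher in clone 7E, although Tbx3 and Tfcp2l1 were not called under each library's own ERCC counts, where the split over all genes was 1618 higher and 6291 lower in place of 3258 and 3219. Pou5f1 was lower, at 23245, 24530 and 24580 against 27220, 27942 and 27899 (-0.20 ± 0.04, adjusted p = 2e-04). Nanog (0.04 ± 0.04) and Klf4 (-0.09 ± 0.05) were not called. Klf4 was called lower with own ERCC counts (-0.248, adjusted p = 0.00209), which made the members 5 higher and 2 lower, and also with a replicate block (-0.085, adjusted p = 0.0157). Primitive endoderm markers differed far more between the clones. All 7 were lower in clone 7E, with summed levels of 3752 to 3921 normalised counts in clone 5F at day 0 and 441 to 485 in clone 7E, and Pdgfra (-3.57 ± 0.10), Gata4 (-3.46 ± 0.09) and Gata6 (-3.43 ± 0.12) differed most. None of the 7 was at 0 in a group. Genes of the exit from the naive state summed to 15251 to 15952 in clone 5F and 7698 to 8229 in clone 7E. Of these 8 genes 1 was higher and 4 were lower, beside 20% and 19.7% of all genes. The part of these markers in the clone differences of the members was not tested either.

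**Figure D2:**
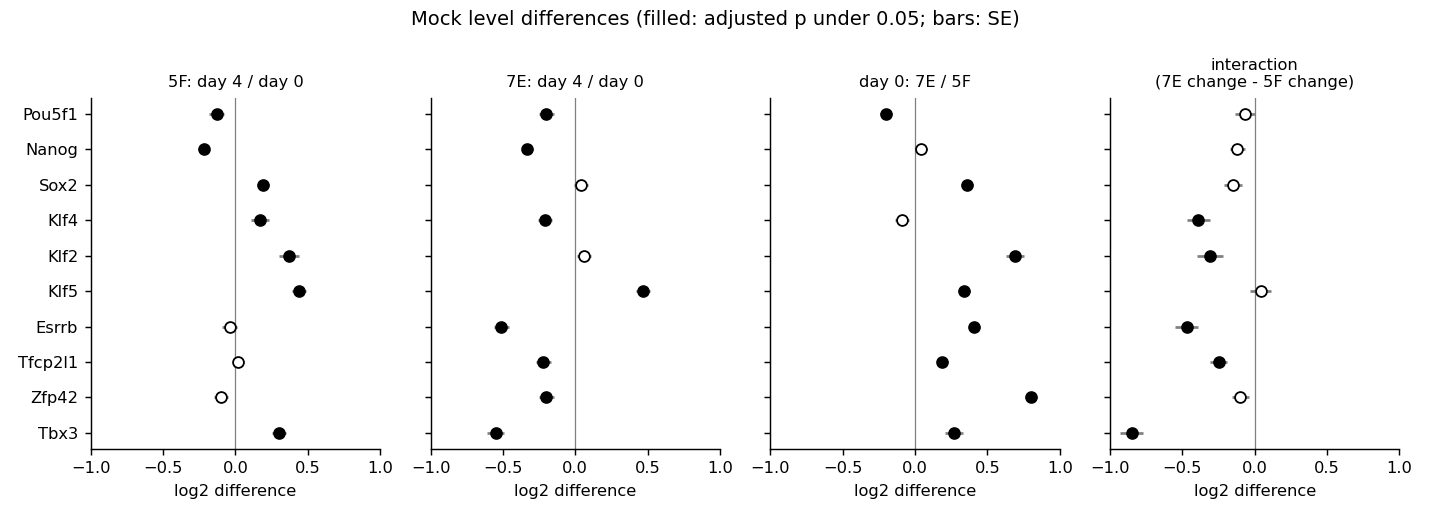
Log2 differences of the members' mock levels with SE bars in the comparisons of days, of clones at day 0 and of the days between clones; filled points have an adjusted p under 0.05. Tbx3 lies at 0.30 in clone 5F and at -0.55 in clone 7E, and Klf5 is above 0 in both clones under the main scaling, though at -0.62 in clone 7E with each library's own ERCC counts.

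The interaction of clone and day tested whether the day 4 difference itself differed between the clones. It was called for 5 of the 10 members, each with the more negative difference in clone 7E, against 5.29% of all genes called lower and 6.65% called higher. With only genes of a mean of at least 50 counts tested, 934 of 12263 genes were called lower and 1125 higher. Tbx3 had the largest interaction, -0.85 ± 0.08 on the log2 scale (edgeR adjusted p = 1.23e-07). Esrrb followed at -0.47 ± 0.08 (adjusted p = 0.000185) and Klf4 at -0.39 ± 0.08 (adjusted p = 0.00244). Klf2 was at -0.31 ± 0.09 (adjusted p = 0.0341) and Tfcp2l1 at -0.25 ± 0.06 (adjusted p = 0.00686). For Tbx3 and Klf4 the days moved in opposite directions in the clones, while for Klf2 a rise was called in clone 5F and the difference in clone 7E was not called. Without replicate 1 the calls of Klf4, Klf2 and Tfcp2l1 were lost, and without replicate 3 that of Klf2, so those of Tbx3 and Esrrb rested on no single replicate. Klf5 had no called interaction in the main scaling (0.04 ± 0.07), and its sign turned to -0.99 under the ERCC scaling, where the median of all genes was -1.029 and 54 genes were called higher and 14318 lower, in place of 1145 and 911. Pou5f1, Nanog, Sox2 and Zfp42 were not called, at -0.15 to -0.07.

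Other genes of the network were compared in the same way. Of 20 further pluripotency genes 3 rose and 6 fell at day 4 in clone 5F, against 12.8% of all genes called higher and 11.6% lower. In clone 7E 2 rose and 13 fell, against 20.7% and 19.4%. Gbx2 (-1.16), Fgf4 (-0.93) and Tet2 (-0.78) fell most there on the log2 scale. The interaction was called lower for 7 of these 20 genes, against 5.29% of all genes. Prdm14 (-0.85 ± 0.09), Gbx2 (-0.83 ± 0.09) and Fgf4 (-0.66 ± 0.06) led. At day 0, 6 of the 20 were higher in clone 7E, Prdm14 by 0.96, and 5 were lower, with Lin28a at -0.66 and Dppa5a at -0.62. These day 0 counts were not far from the 20% and 19.7% of all genes. Of 8 genes of the LIF pathway, from the receptor subunits to STAT3, 2 rose and 1 fell at day 4 in each clone. These counts too were not far from the shares of all genes. With each library's own ERCC counts, all 20 network genes and all 8 LIF pathway genes were called lower at day 4 in clone 7E, so the rises in that clone turned. The interaction was called lower for all 20 network genes. Of all genes, that scaling called 14716 of 16333 lower in clone 7E and 14318 of 17209 lower for the interaction. In clone 5F that scaling turned no called gene of either list, with 2 network genes and 1 LIF pathway gene called higher. At day 0 the network counts became 3 higher and 10 lower.

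The central measurement was the decay of each message after actinomycin D. Half-lives of the members spanned 10.9-fold in clone 5F at day 0, from 1.07 ± 0.0885 h (SE of the fit over 11 libraries) for Klf2 to 11.6 ± 1.82 h for Pou5f1. Klf2 and Klf4 (1.18 ± 0.0362 h) formed the short end, with Sox2 (1.35 ± 0.0771 h) and Tbx3 (1.46 ± 0.0609 h) next. Zfp42 (2.04 ± 0.0657 h) and Klf5 (2.26 ± 0.168 h) lay in the middle. Nanog (3.67 ± 0.392 h), Esrrb (4.42 ± 0.565 h) and Tfcp2l1 (5.00 ± 0.407 h) were close to the median of 4.64 h over 10535 protein-coding genes. Neighbours within each of these 4 sets did not differ beyond 2 combined SE. These SEs also hold departures from a straight line and can exceed the spread between libraries. For Nanog the SD of half-lives fitted to the 3 replicate series was 0.0952 h.

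**Figure D3:**
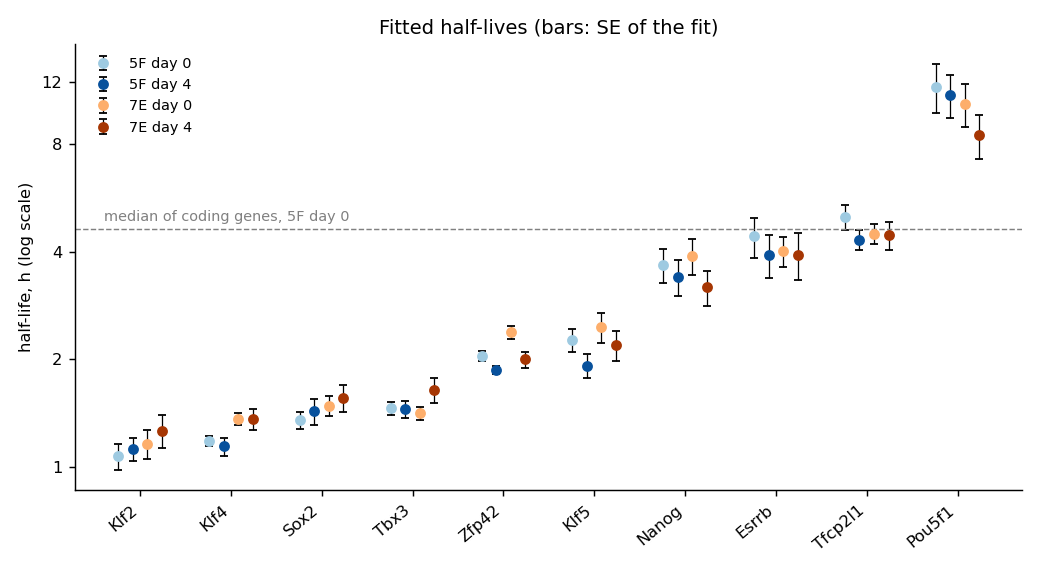
Half-life in hours (log axis) of each member in the 4 combinations of clone and day, with SE bars; the dashed line is the median of protein-coding genes in clone 5F at day 0, 4.64 h. Pou5f1 lies between 8.48 and 11.6 h, and Klf2 and Klf4 lie between 1.07 and 1.36 h in all 4.

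The ranking was nearly the same in all 4 combinations of clone and day, with Sox2 (1.48 h) and Tbx3 (1.41 h) exchanging places in clone 7E at day 0. Klf2 had 1.07 to 1.26 h, within the shortest 0.769% of protein-coding genes, and Klf4 1.14 to 1.36 h, within the shortest 1.68%. Sox2 stood at 1.35 to 1.56 h and Tbx3 at 1.41 to 1.64 h. Pou5f1 stood at 8.48 to 11.6 h, at percentile 93.6 to 94.4, where a higher percentile means a longer half-life. At least 6 members lay below the lower quartile of protein-coding genes in every combination, and 8 or 9 lay below the median. The members' median half-life was 2.15 h and 1.89 h in clone 5F at day 0 and day 4 and 2.42 h and 2.09 h in clone 7E, against 4.64 to 4.68 h over protein-coding genes. The scaling was shared by all groups at each time point, which holds the typical gene to a like slope in each group. A decay change common to most genes could therefore not show between days or clones. The messages of the DNA-binding partners OCT4 and SOX2 lay far apart, at 11.6 and 1.35 h in clone 5F at day 0.

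The time courses show what lies behind these fits. Of its mock level in clone 5F at day 0, Klf2 kept 11.6% ± 0.566 (SD, n = 2) at 120 min, 4.23% ± 1.25 (n = 3) at 240 min and 1.9% ± 0.2 at 360 min, where its lowest library still held 64 counts. Sox2 kept 22% ± 0.636, 9.1% ± 0.436 and 4.53% ± 0.321. Pou5f1 kept 83.8% ± 7.57, 76.6% ± 8.95 and 69.7% ± 3.63. At 360 min the libraries of Pou5f1 lay between 65.8% and 73%, and those of Klf2 between 1.7% and 2.1%. Zfp42 (12.4% ± 0.2) and Klf5 (15.2%) were between them at 360 min, as were Nanog (32.7% ± 0.306), Esrrb (39.0%) and Tfcp2l1 (43.9% ± 1.5).

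Decay was not a single exponential for several members. The slope of Nanog in clone 5F at day 0 was -0.325 ± 0.014 natural-log units per hour in the first 120 min, -0.189 ± 0.014 between 120 and 240 min and -0.045 ± 0.007 after that. In clone 7E at day 4 the steps were -0.405, -0.198 and -0.057. Tfcp2l1 did not show this slowing in clone 5F at day 0, with -0.091 ± 0.026, -0.160 ± 0.049 and -0.161 ± 0.044. These steps did not differ beyond 2 combined SE. In clone 7E at day 4 the first step of Tfcp2l1 was the steepest, at -0.222 ± 0.039, but also within 2 combined SE of the later ones. The median slope of protein-coding genes was steepest in the first interval too, at -0.259 per hour, and then -0.106 and -0.084. The half-life of Nanog therefore depended on the time points used, at 2.70 h without the 360 min libraries and 6.22 h without the mock libraries, against 3.67 h over all. Klf2 moved from 1.07 to 1.58 h without the mock libraries, after which Klf4, at 1.28 h, was the shortest.

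**Figure D4:**
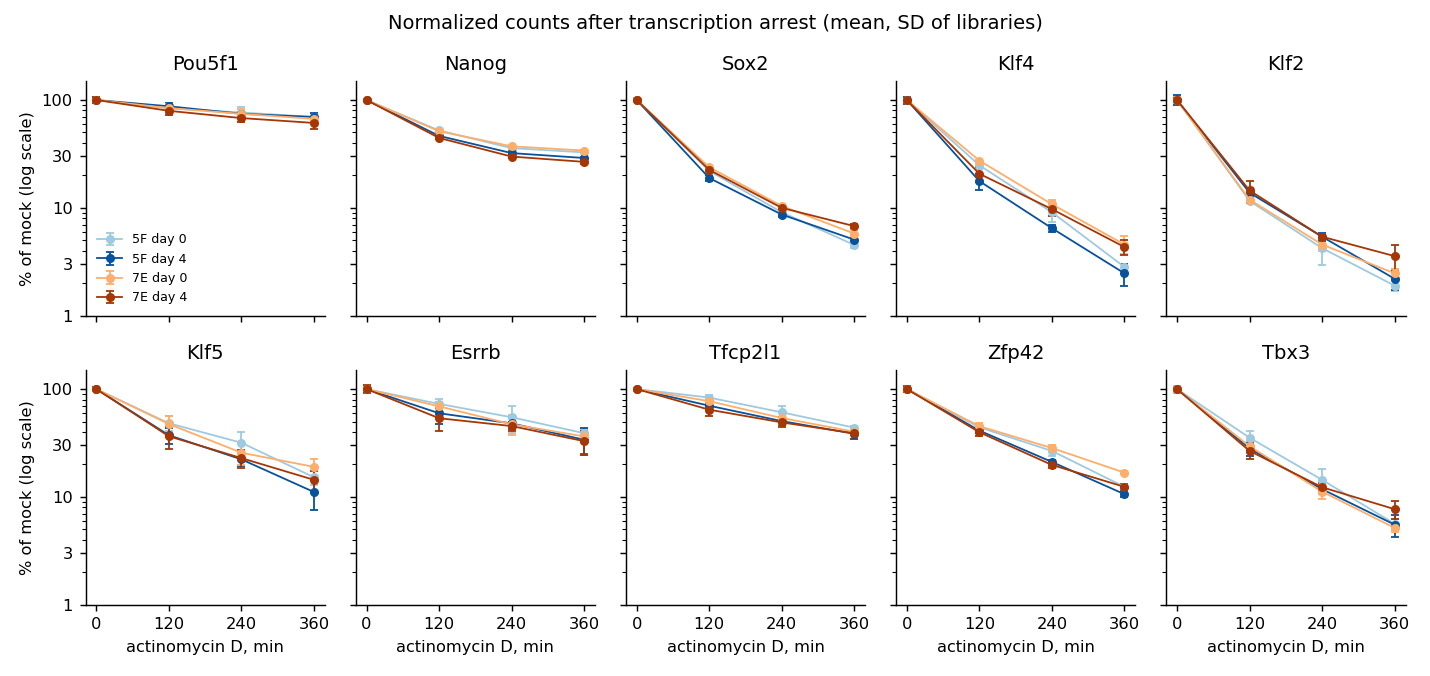
Percent of the mock level on a log axis against minutes of actinomycin D for each member, with 1 line per clone and day; points are means and bars are SD over 2 or 3 libraries. Klf2 falls to 1.9% by 360 min in clone 5F at day 0 and Pou5f1 stays at 69.7%.

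Differences in decay between days or clones were tested as differences in the slope on time, under the scaling shared by all groups. Only departures from the change of most genes could show. In clone 5F 0 of 10 members were called, against 0.196% of all genes. The differences ran from -0.076 ± 0.047 log2 units per hour for Klf5 to 0.052 ± 0.084 for Klf2, where a negative value means faster decay at day 4. Zfp42 had the smallest unadjusted p, 0.0484 (-0.044 ± 0.021, edgeR adjusted p = 1), and was the only member under an unadjusted 0.05 in that comparison. In clone 7E 0 of 10 members were called, against 0.884% of all genes, and 1 had an unadjusted p under 0.05. That gene was again Zfp42, at -0.080 ± 0.029 (p = 0.0101, adjusted p = 0.296). Its half-life went from 2.38 ± 0.103 to 2.00 ± 0.103 h in clone 7E and from 2.04 ± 0.0657 to 1.87 ± 0.0501 h in clone 5F. Tbx3 had the largest positive difference in clone 7E, 0.096 ± 0.052.

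Between the clones at day 0, 0 of 10 members were called, against 0.0394% of all genes. Klf4 (0.112 ± 0.037, p = 0.00584) and Zfp42 (0.070 ± 0.023, p = 0.00595) had unadjusted p under 0.05, both toward slower decay in clone 7E, with an adjusted p of 0.796 for each. Their half-lives in clones 5F and 7E were 1.18 and 1.36 h for Klf4 and 2.04 and 2.38 h for Zfp42. The interaction of clone and day was called for 0 of 10 members, with values of -0.036 to 0.101 and SEs of 0.027 to 0.135, and the smallest unadjusted p was 0.157. Over all genes that interaction was called for 0%, with 476 genes under an unadjusted p of 0.05, while DESeq2 called 4 genes and limma 0. No member was called by DESeq2 or limma in any of the decay comparisons. The slopes of Klf2 were measured least precisely of the members, with SEs of 0.084 to 0.135 log2 units per hour, and a difference of that size was not detectable there. Small differences could be missed in the other members too. In simulated counts the test between the days recovered 27.5% of differences of 0.1 in clone 5F and 19% in clone 7E. At 0.05 it recovered 0% in both. Every simulated gene had the same fixed dispersion, and the changed ones had high mean counts. These rates therefore do not cover members with a wider spread, such as Esrrb. In clone 5F at day 0 Esrrb was at 54.8% ± 15.3 (SD, n = 3) of its mock level at 240 min. The absence of a call therefore does not show that decay was unchanged.

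A second kind of measurement bears on how these messages are degraded. In CRAC, RNA crosslinked to a tagged protein is purified and sequenced. The paper lists a separate line for each tag, made in cells that express BirA ligase and an inducible Cre. No Aven knockout and no floxed Skiv2l is listed for these tagged lines. They are neither of the clones in which half-lives were measured. The RPKM used to normalise the ratios came from RNA-seq of tagged lines as well. The deposited table gives, for each mRNA, the share of the pooled signal that was found on the 5′ to 3′ exonuclease XRN1, on SKIV2L and on the nuclear exosome helicase MTR4, which sum to 1, and the AVEN signal relative to the same total. The values are the authors' pooled ratios and carry no replicate error. XRN1 held the largest share for 7 of the 10 members and for 38.1% of the table's mRNAs, SKIV2L for 2 members (26.5% of mRNAs), and MTR4 for 1 member (35.4%). The members' median XRN1 ratio was 0.462, beside 0.337 over the table, and their median MTR4 ratio 0.22, beside 0.319.

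Tbx3 had the most one-sided binding, with an XRN1 ratio of 0.85 at percentile 99.9 of the table, against 0.0712 for SKIV2L and 0.0792 for MTR4. In the authors' ratios normalised to RNA-seq RPKM, however, its XRN1 value was 0.64 (percentile 96). That was below Sox2 (0.702, percentile 98.2) and Klf4 (0.665, percentile 97.1). The protein with the largest value was the same for all 10 members with and without that normalisation. Klf4 (0.665, percentile 96.9), Sox2 (0.611, percentile 94.4), Tfcp2l1 (0.563, percentile 90.6) and Klf2 (0.502, percentile 83.1) were also in the upper part of the XRN1 range. In Klf5 (0.422) and Zfp42 (0.417) the XRN1 and SKIV2L ratios were nearly equal, with SKIV2L at 0.361 and 0.398. SKIV2L was largest for Pou5f1 (0.458, percentile 83.6) and Esrrb (0.402, percentile 76.1). Nanog was the member with MTR4 largest, at 0.405 (percentile 67.3). AVEN was high relative to the total on Pou5f1 (0.537, percentile 90.8) and on Klf4 (0.503, percentile 88), and low on Klf2 (0.106, percentile 6.6) and Tbx3 (0.137, percentile 10.7).

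**Figure D5:**
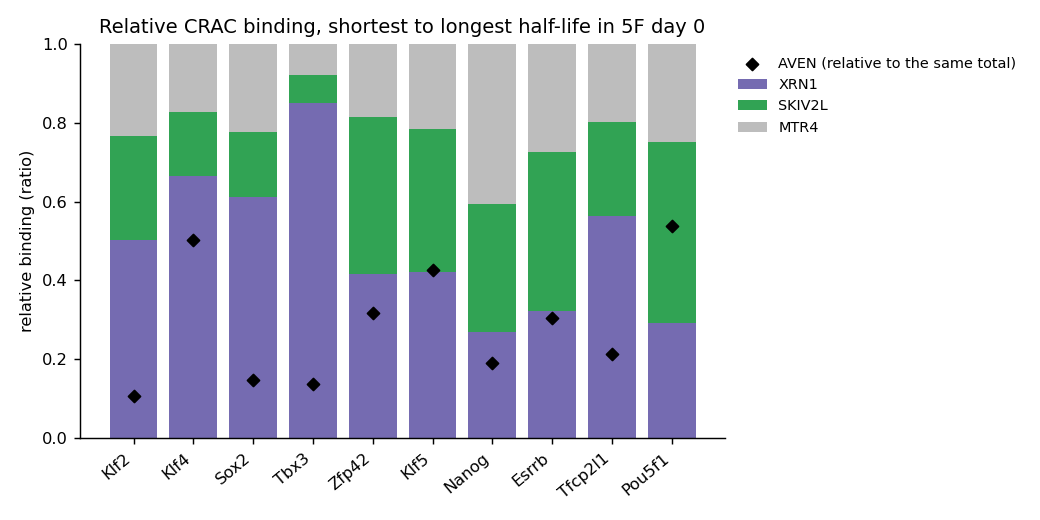
Deposited relative binding of XRN1, SKIV2L, MTR4 and AVEN for each member in order of half-life, as ratios without replicate error; stacked bars are the first 3, which sum to 1, and diamonds are AVEN relative to the same total. XRN1 reaches 0.85 on Tbx3 and 0.292 on Pou5f1, where SKIV2L is the largest at 0.458.

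The 4 members with the shortest half-lives, Klf2, Klf4, Sox2 and Tbx3, thus had XRN1 ratios of 0.502 to 0.85, and Pou5f1, the longest-lived, had 0.292. In the RPKM-normalised values these 4 ran from 0.514 to 0.702 and Pou5f1 was at 0.279. Tfcp2l1 and Nanog did not follow this order. Tfcp2l1 had a ratio of 0.563 (0.462 normalised), above the 0.502 of Klf2, and a half-life of 5.00 h. Nanog had the lowest XRN1 ratio of the members, 0.268 with and without the normalisation, and a half-life of 3.67 h. Across the 10 members Spearman's rho between half-life in clone 5F at day 0 and the XRN1 ratio was -0.61, and it was -0.17 over 7145 mRNAs. For SKIV2L rho was 0.62 among the members and 0.38 over all, and for MTR4 0.41 and -0.22. With AVEN the values were 0.45 and 0.03. These are descriptions across genes, which within each measure share the same libraries. The half-lives came from clone 5F and the ratios from CRAC of separate tagged lines, so the measures share no library. The ratios share a total, and XRN1 and SKIV2L are therefore not independent. Motif density gave rho of -0.27 for ATTTA and -0.38 for TGTANATA among the members, and -0.16 and -0.25 over 6584 mRNAs.

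Over the 12 mock libraries, which share day and clone as sources of variation, the members did not move as a block. Of their 45 pairs 8 had Pearson's r above 0.7 and 5 had r below -0.7. The share of such pairs over all genes was not computed, so these counts cannot be read as particular to the members. Sox2 and Klf2 (0.96) and Esrrb and Tfcp2l1 (0.96) went together, while Pou5f1 and Klf5 went opposite (-0.90). Among genes with a mean of at least 100 counts, the profiles most like those of the members were Bud23, Atg16l2 and Tbl3 for Pou5f1 (r from 0.983 to 0.991), and Enox1, Bpnt1 and Adh5 for Nanog (0.983 to 0.989). For Sox2 they were Dmrt1, Hist1h1e and Repin1 (0.970 to 0.984), for Klf4 Mybl2, Pltp and Lrig3 (0.961 to 0.967), for Klf2 Hist1h1e, Map1s and Atp13a1 (0.971 to 0.984), and for Klf5 Ankhd1, Rbm15 and Dsg2 (0.986 to 0.989). Those of Esrrb were Adcy1, Kank2 and Aes (0.959 to 0.978), those of Tfcp2l1 Dclk2 and Esrrb (0.966 and 0.956), those of Zfp42 Urb2, Nup133 and Uck2 (0.993 to 0.995), and those of Tbx3 Mical1, Fhod3 and Bicral (0.913 to 0.958). Hist1h1e is 1 of a family of near-identical histone genes, and its counts are uncertain for that reason.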

How the data were processed

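The members and gene lists were chosen with earlier results of these data known. Raw counts per gene were deposited by the authors, from uniquely placed STAR alignments of unstranded reads to GRCm38 with ERCC sequences and Gencode annotation. The deposited binding table gives the authors' pooled CRAC ratios, the same ratios divided by RNA-seq RPKM as scores, RPKM per tagged line, and transcript and stop positions. Deposited half-lives and the authors' fold changes and p-values were not used, and 0 count columns were left unused. Symbols were matched for 53274 of 53380 genes.

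edgeR 4.0.16 (R 4.3.3) quasi-likelihood tests on the counts, filtered with filterByExpr, used DESeq2 1.42.0 size factors over the mock libraries. Decay fits took time in hours as a number, with size factors within each time point and 1 ERCC factor per time point from 34 spike-ins with a mean above 50 counts. SEs are the log2 estimate over the square root of F. P-values were Benjamini-Hochberg adjusted over all genes, with a threshold of 0.05. Half-lives are -ln 2 over the slope of ln(normalised count + 1) on time. Replicates differed beyond sampling noise (chi-square per gene of 2.59 to 12.2 over 12 pairs), and same-numbered mock libraries of the clones deviated together from their group means at day 0 (r of 0.23, 0.41 and 0.14) and at day 4 (0.19, 0.47 and 0.47), a pairing seen in the data only. The scripts were tested on simulated data. Alternatives were TMM, each library's own ERCC counts, DESeq2, limma 3.58.1 with voom, other filters, a pseudocount of 0.5, leaving out replicates or time points, a replicate block and, chosen after seeing the data, leaving out 6 libraries with few mt-Rnr2 counts. Named genes are the members, Skiv2l and Aven, the 3 genes most correlated with each member (1 of them is not reported here), and up to 3 called genes per list with the largest difference.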

Additional observations from a re-analysis of the deposited data

Results flagged for a closer look

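The mock level differed between the days by a different amount in the clones for 5 members, by the test of the interaction of clone and day (edgeR, adjusted over all genes). The interaction was -0.85 on the log2 scale for Tbx3, -0.47 for Esrrb, -0.39 for Klf4, -0.31 for Klf2 and -0.25 for Tfcp2l1, each with the more negative difference in clone 7E. Beside them stand the Skiv2l counts, which fell at day 4 in clone 7E and not in the 5F libraries labelled day 4, with an interaction of -1.31 ± 0.09. The part of Skiv2l in the members' differences was not tested.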

How the results depend on the processing

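With a replicate left out, 4 to 6 members were called in clone 5F, against 7 in all. For the interaction of clone and day 2 to 5 were called, against 5, and 10 with each library's own ERCC counts. That scaling reversed the differences of Sox2 (-1.055), Klf2 (-1.038) and Klf5 (-0.624) between the days in clone 7E and the interaction of Klf5 (-0.994), where the median of all genes was -1.105 and -1.029. The median half-life of the members without the mock libraries was 2.25 h and 2.17 h in clone 5F at day 0 and day 4 and 2.91 h and 2.69 h in clone 7E, and without the 360 min libraries it was 2.11 h in clone 7E at day 0 and 1.79 h at day 4. Of the decay comparisons, 0 members were called under every alternative run.

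Replicate numbers did not pair the mock libraries of day 0 with those of day 4, where no same-numbered pair correlated above 0.1. With a replicate block 5 members were called in clone 5F, where Pou5f1 (adjusted p = 0.153) and Klf4 (0.0682) were not, 8 in clone 7E, 9 between the clones at day 0, where the numbers did pair the libraries and Klf4 was called (-0.085, adjusted p = 0.0157), 5 for the interaction, and 0 in the decay comparisons.

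Over all genes, calls fell from 3998 to 1845 without replicate 1 and 1947 without replicate 3 in clone 5F, from 6551 to 4323 without replicate 1 in clone 7E, and from 2056 to 751 and 1347 without replicates 1 and 3 for the interaction. With own ERCC counts they were 14974 in clone 7E and 14372 for the interaction. Decay calls in clone 5F were 35, and 19 with own ERCC counts, 14 without the mock libraries and 2 to 4 with a replicate left out. In clone 7E they were 154, and 267 with DESeq2, 236 without the mock libraries, 84 without 360 min and 26 to 50 with a replicate left out. Between the clones they were 7, and 32 with DESeq2, 23 without the mock libraries, 17 without the 6 libraries low in mt-Rnr2, 3 unfiltered, 2 with own ERCC counts, 1 without 360 min and 0 with TMM or a replicate left out. The decay interaction had 0, and 1 with own ERCC counts, 4 with DESeq2, 5 without the mock libraries and 4 without those 6 libraries.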

Other observations

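The 3 genes of the Zscan4 family, markers of the rare cells that resemble the embryo after its first division, moved the same way in both clones. Their summed mock level was 48 to 62 normalised counts in clone 5F at day 0 and 167 to 216 in the libraries labelled day 4. In clone 7E it was 24 to 29 at day 0 and 143 to 183 at day 4. All 3 were called higher at day 4 in both clones by edgeR, against 12.8% of all genes in clone 5F and 20.7% in clone 7E. They were also called higher with each library's own ERCC counts. These are near-identical genes, and their counts are low beside the members' sums of 84713 to 100994.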
